A study of Rattus norvegicus with 16 samples.

Results

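Chaperones are the proteins that fold, refold and assemble other proteins, and 88 of the 14557 genes measured here belong to their named families. The 88 were taken by gene symbol from the platform annotation: the small heat shock proteins (Hspb), the Hsp70 and Hsp110 proteins (Hspa and Hsph1), Hsp90, the J proteins that partner Hsp70 (Dnaja, Dnajb and Dnajc), the protein disulfide isomerases (Pdia and P4hb), Sdf2l1, the FKBP prolyl isomerases and the subunits of the cytosolic chaperonin CCT. A gene counted as a member when a transcript cluster, the probe group that stands for one transcript on this array, carried that symbol and no other, and the cluster with the highest mean was kept. By the known site of the protein, 39 members work in the cytosol, 23 in the endoplasmic reticulum (ER), 5 in the mitochondrion and 13 elsewhere. The other 8 were 4 pseudogenes and 4 predicted relatives without an assigned site.

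The samples were plantaris muscles of Sprague Dawley rats, all retired breeders. Day 0 muscles (4 arrays) were controls without overload. Muscles of days 3, 7 and 28 (4 arrays each) came from rats whose Achilles tendons had been cut out on both sides, which disables the gastrocnemius and soleus and leaves the load to the plantaris, a model of muscle growth called synergist ablation. No sham-operated group is labelled, so loading and surgery cannot be told apart. The labels number the replicates without stating that they are separate animals, and the p-values below therefore describe spread among these 16 arrays, part or all of which could be technical. In whole muscle, fewer cells of a type and less RNA per cell cannot be told apart.

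Cytosolic and secretory chaperones answer to different alarms. Unfolded protein in the cytosol releases heat shock factor 1 (Hsf1), which binds heat shock elements, inverted repeats of GAA, in the promoters of its targets. Unfolded protein in the ER lumen is sensed by Ern1, Eif2ak3 and Atf6, and the factors downstream bind the ER stress elements of genes such as Hspa5. Muscle fibres hold large amounts of small heat shock proteins, which guard the contractile filaments, whereas ER folding enzymes are abundant in cells that secrete collagen, such as fibroblasts, and in cells that secrete antibodies.

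The promoters of 69 members were found by gene identifier in a RefSeq table of the rat assembly GRCr8 (250 bases before to 50 after the gene start). Of the table's 33469 promoters, 22 (0.0657%) held the ER stress element (CCAAT, any 9 bases, then CCACG) on either strand. Of 20 matched ER members, 2 held it, Hspa5 and Dnajc3, and of 32 cytosolic members 0 did. The shorter form (ATTGG, any 1 base, then CCACG) was in 17 promoters of the table (0.0508%) and in 1 ER member, Dnajb11, and no member held both forms. The 3 stretches are shown because they are those of the ER members with either form, and capitals mark its fixed letters.
Hspa5, chr3:38452943-38453021, plus strand: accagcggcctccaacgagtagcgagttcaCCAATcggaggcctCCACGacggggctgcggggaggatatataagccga
Dnajc3, chr15:102432504-102432582, plus strand: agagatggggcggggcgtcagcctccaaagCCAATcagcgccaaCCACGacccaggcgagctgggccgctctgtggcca
Dnajb11, chr11:91672770-91672840, minus strand: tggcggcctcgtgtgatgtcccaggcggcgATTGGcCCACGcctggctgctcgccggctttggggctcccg

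The heat shock element (GAA NN TTC NN GAA, where N is any base), read on both strands, was in 267 promoters of the table (0.798%). It was found in 3 of 32 cytosolic members (Cct4, Dnaja1 and Hsph1), in 1 of 3 matched mitochondrial members (Hspe1) and in 0 of 20 ER members. The core alone, GAA NN TTC, lies within that element and was in 8.59% of all promoters, in 8 of the 32 cytosolic and in 3 of the 20 ER members. The ER unit TGACG TGG (no gap), read on both strands, was in 0.595% of all promoters and in Dnajc10, Dnajb3 and Dnajc25 among the members. Each stretch below holds a full heat shock element, with its fixed letters in capitals, and that of Hspe1 holds a pair of overlapping matches. The matches of Hsph1 and Hspe1 lie before the gene start, and those of Dnaja1 and Cct4 lie after it.
Hsph1, chr12:10427302-10427374, plus strand: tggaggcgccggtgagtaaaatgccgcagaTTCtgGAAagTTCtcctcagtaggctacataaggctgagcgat
Hspe1, chr9:64084232-64084309, plus strand: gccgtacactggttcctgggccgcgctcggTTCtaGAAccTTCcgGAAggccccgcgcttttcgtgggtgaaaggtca
Dnaja1, chr5:60638383-60638453, plus strand: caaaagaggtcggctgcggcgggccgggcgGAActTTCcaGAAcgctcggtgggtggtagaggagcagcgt
Cct4, chr14:101193052-101193106, plus strand: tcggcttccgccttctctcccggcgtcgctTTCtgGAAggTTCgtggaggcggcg
A match is a description of the letters in this window, not a site or a cause.

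Values are log2 expression on the deposited scale, so a difference of 1 is a doubling of the array signal, and a difference of dim clusters is compressed. A member was called changed where limma, fitted over all 14557 genes, gave an adjusted p under 0.05. The arrays correlated within each day at r = 0.985 to 0.990. Median values over the genes tested were 4.16 to 4.24 at day 0 and 4.65 to 4.71 at day 3, so centring each array on that median lowers every day 3 difference by 0.46, every day 7 difference by 0.36 and every day 28 difference by 0.25. The split of calls over all genes then moves from 52.5% higher to 18.2% at day 3, from 53.2% to 16.8% at day 7 and from 69.2% to 15.2% at day 28. Between days 3 and 7 it moves from 39.5% to 56.9%, and between days 7 and 28 from 46.8% to 65.7%. Centring on the brighter 50% of genes instead gives 37.7% at day 3, 53.8% at day 28 and 53.4% between days 3 and 7. The ER rises that kept their call after centring were Fkbp2, Fkbp7, Fkbp10, Fkbp11, P4hb, Pdia3, Pdia6 and Sdf2l1 at day 3, the same genes without Fkbp2 and Pdia6 at day 7, and Fkbp7 at day 28. The cytosolic ones were Hspa14, Hspb1, Hspb2 and Hspb8 at day 3, Hspb2, Hspb7 and Hspb8 at day 7, and Hspa14 at day 28. Those at other sites were Hspe1, Dnajc22, Dnajc9 and Fkbp8 at day 3 and Fkbp8 at day 7.

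By day 3 after surgery the ER chaperones were higher as a group and the cytosolic chaperones were divided. Of the 23 ER members, 13 rose and 0 fell, with a median difference of 0.55, and 8 of them at least doubled. The cytosolic members split into 13 that rose and 8 that fell of 39, with a median of 0.06. Over all genes, 41.3% were called, 21.7% as rises and 19.6% as falls, with a median of -0.05. After centring, 8 ER members rose and 8 fell, 4 cytosolic members rose and 21 fell, and the medians were 0.09 for the ER, -0.40 for the cytosol, whose sign turned, and -0.51 for all genes. Over all 14557 genes, centring gave 1883 rises and 8438 falls at day 3. A fall called after centring is therefore shared with most genes at that day.

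By day 7 the ER group was narrower: 9 of 23 members rose and 1 fell (median 0.13, or -0.23 after centring), against 9 rises and 6 falls of 39 cytosolic members (median -0.05). After centring, 6 ER members rose and 9 fell, and 3 cytosolic members rose and 21 fell (median -0.40). On that scale, 1417 of all 14557 genes rose and 7025 fell (median -0.40). The background at day 7 was 31.7% of genes called, 16.9% rises and 14.9% falls. At day 28, 2 ER members rose and 0 fell, and 1 cytosolic member rose while 2 fell, where 6.29% of all genes rose and 2.80% fell, 9.09% together. After centring, 1 ER member rose (Fkbp7) and 6 fell, and 1 cytosolic member rose (Hspa14) and 13 fell. Over all 14557 genes the centred counts were 544 rises and 3043 falls. The 3 comparisons share the day 0 arrays. Counted by overlap instead, all 4 arrays lay above day 0 for 13 ER and 13 cytosolic members at day 3, where 20.7% of all genes did (18.6% below). At day 7 this held for 9 ER and 8 cytosolic members (16.3% of all genes, with 15.8% below), and at day 28 for 4 and 2 members (8.93%, with 6.95% below).

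Between days 3 and 7, 9 of 23 ER members fell and 0 rose, while 5 cytosolic members fell and 3 rose, against 9.23% falls and 6.02% rises over all genes (15.3% called). All day 7 arrays lay below day 3 for 11 ER and 6 cytosolic members (10.8% of all genes) and above for 0 and 2 (7.20%). From day 7 to day 28, 8 ER members fell and 0 rose, and 5 cytosolic members fell and 4 rose, against 9.38% falls and 8.24% rises (17.6% called). All day 28 arrays lay below day 7 for 7 ER and 6 cytosolic members (10.1% of all genes) and above for 0 and 4 (11.0%). The 0 rises from day 3 to day 7 became 1, Fkbp9, after centring. The highest of the 4 daily means was that of day 3 in 14 of 23 ER members and 19 of 39 cytosolic ones, and in 29.6% of all genes. Set against the day 0 means, the median of the ER members on single arrays ranged over day 3 arrays from 0.46 to 0.60, over day 7 from 0.14 to 0.30 and over day 28 from -0.015 to 0.17. The same median of cytosolic members ranged from 0.023 to 0.16, from -0.16 to 0.027 and from -0.069 to 0.012.

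**Figure D1:**
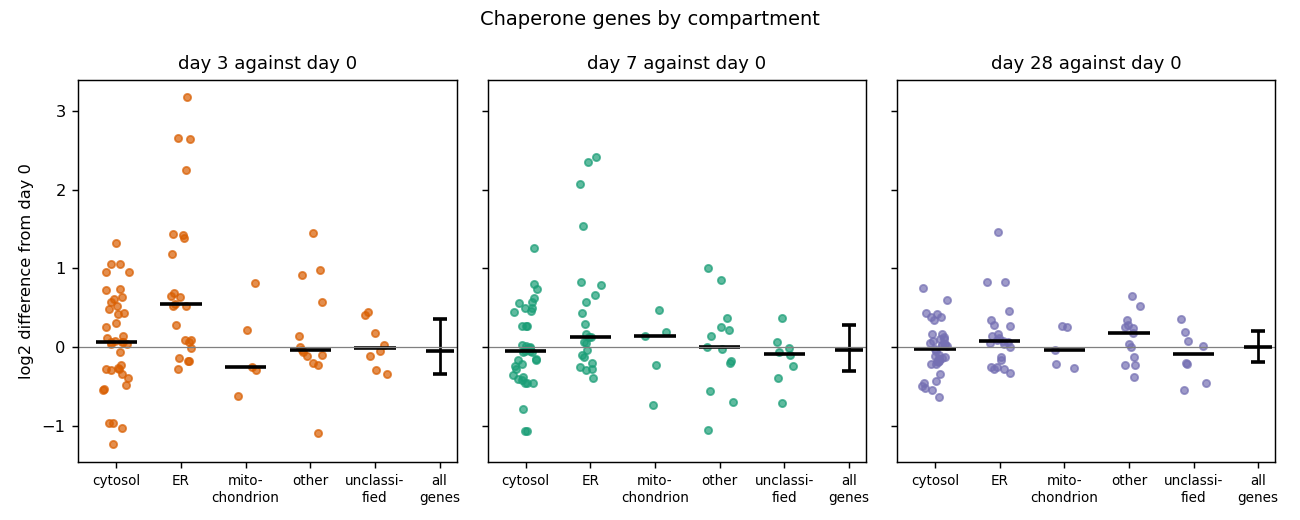
Each point is the log2 difference of 1 chaperone gene from day 0 (vertical axis) by the site of the protein, at days 3, 7 and 28, with the group median as a bar and, at the right, the median and the middle 50% of all genes tested. The ER medians of 0.55, 0.13 and 0.08 become 0.09, -0.23 and -0.17 with arrays centred on all genes, and the cytosolic medians of 0.06, -0.05 and -0.03 become -0.40, -0.40 and -0.28.

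The ER Hsp70, Hspa5 (BiP), which binds unfolded chains and the stress sensors in the lumen, rose at day 3 only by a modest amount. Hspa5 read 9.81, 9.88, 9.75 and 10.01 on the day 0 arrays, 10.28, 10.32, 10.28 and 10.76 at day 3, 9.84, 9.90, 9.57 and 9.74 at day 7 and 9.30, 9.37, 9.60 and 9.84 at day 28. All day 3 arrays lay above all day 0 arrays, with 1 array well above the rest, and days 7 and 28 overlapped day 0. The day 3 difference was 0.55 ± 0.14 (SE, n = 4 per group), 1.47-fold, with an adjusted p of 0.00483 by limma, and 0.091 after centring, no longer called. Hspa5 then fell by 0.65 to day 7 (adjusted p = 0.00463), and its day 28 difference of -0.33 was not called. Hspa13 (Stch), a microsomal relative of Hsp70, was not called at any day, and its day 3 difference of 0.087 was -0.37 after centring, a called fall (adjusted p = 0.0319).

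Among the J partners of Hspa5, Dnajb11, Dnajc3 and Dnajc1 rose at day 3. Dnajb11 (ERdj3), which hands unfolded chains to Hspa5, read 7.36, 7.57, 7.44 and 7.41 at day 0, 8.27, 8.07, 7.90 and 8.27 at day 3, 7.52, 7.59, 7.71 and 7.60 at day 7 and 7.64, 7.47, 7.48 and 7.38 at day 28. Dnajc3 (p58IPK), another luminal partner, read 7.81, 8.25, 7.97 and 7.99 on the day 0 arrays, 8.61, 8.72, 8.58 and 8.68 on those of day 3, 8.04, 8.36, 7.77 and 7.71 on those of day 7 and 8.04, 8.01, 8.16 and 7.98 on those of day 28. Only the day 3 arrays of these members stood clear of day 0. Dnajb11 rose by 0.68 ± 0.11 (adjusted p = 8.98e-05) and Dnajc3 by 0.64 ± 0.14 (adjusted p = 0.0011). After centring the values were 0.22 and 0.18, not called. The 3 members with either form of the ER stress element (Hspa5, Dnajb11 and Dnajc3) all lost their day 3 call after centring. Of the day 3 rises whose windows hold neither form, Sdf2l1, Fkbp2, Fkbp7, Fkbp11 and P4hb kept their call after centring, and Dnajc1 and Fkbp14 lost it. Fkbp10, Pdia3 and Pdia6, which also kept it, had no matched promoter, so the division is incomplete. A link between the element and the rises was not tested. Dnajc1 (ERdj1), anchored in the ER membrane, rose by 0.52 (adjusted p = 0.00346), from 7.07 to 7.37 on day 0 arrays to 7.59 to 7.74. From day 3 to day 7, Dnajb11 fell by 0.52, Dnajc3 by 0.68 and Dnajc1 by 0.46. The fall of Dnajc1 was lost without day 3 replicate 2 (-0.44) or 4 (-0.45), or without day 7 replicate 3 (-0.43) or 4 (-0.39).

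Dnajb9 and Dnajc10, J proteins that also act in disposal of misfolded chains, were not among the rises. Dnajb9 (ERdj4), a target of the ER stress factor Xbp1, read 8.30, 8.31, 8.22 and 8.43 at day 0, 8.56, 8.34, 8.47 and 8.24 at day 3, 8.02, 8.42, 7.93 and 8.08 at day 7 and 8.75, 8.34, 8.34 and 8.19 at day 28. The groups overlapped throughout, and the day 3 difference was 0.084 (95% interval -0.21 to 0.38), or -0.38 after centring, a called fall (adjusted p = 0.0239). Dnajc10 (ERdj5), a disulfide reductase that opens chains for export to the proteasome, read 8.85, 8.72, 8.69 and 8.66 on the day 0 arrays, 8.55, 8.51, 8.51 and 8.62 on those of day 3, 8.47, 8.36, 8.21 and 8.28 on those of day 7 and 8.44, 8.29, 8.61 and 8.56 on those of day 28. Every later array lay below every day 0 array, and the fall of 0.40 at day 7 was called (adjusted p = 0.00848). The 4 J proteins of the ER membrane whose J domain faces the cytosol or is of unsure side (Dnajb14, Dnajc14, Dnajc16 and Dnajc18) ran from -0.18 to 0.060 at day 3, and none was called at any day. After centring all 4 were called as falls at day 3 (-0.64 to -0.40), as were 8438 of all 14557 genes (median of all genes -0.51).

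Of the 5 disulfide isomerases, which form and shuffle the disulfide bonds of secreted proteins, 3 more than doubled by day 3. P4hb, which is also the beta subunit of collagen prolyl 4-hydroxylase, read 9.44, 9.41, 9.33 and 9.41 at day 0, 10.70, 10.89, 10.64 and 11.05 at day 3, 10.49, 10.18, 10.02 and 10.03 at day 7 and 9.59, 9.56, 9.55 and 9.47 at day 28. Pdia3 (ERp57), the isomerase of glycoproteins, read 9.22, 9.38, 9.24 and 9.44 on the day 0 arrays, 10.61, 10.74, 10.63 and 10.86 on those of day 3, 10.49, 10.32, 9.93 and 9.86 on those of day 7 and 9.59, 9.53, 9.88 and 9.63 on those of day 28. Pdia6 (P5), which binds Hspa5, read 7.98, 7.75, 7.84 and 8.07 on the day 0 arrays, 9.22, 9.49, 9.18 and 9.50 on those of day 3, 8.64, 8.65, 8.19 and 8.45 on those of day 7 and 7.92, 7.83, 7.99 and 7.92 on those of day 28. In all 3 the arrays of day 3 were above those of every other day, and day 7 lay between day 3 and day 0. At day 3 P4hb rose 2.68-fold (1.42 ± 0.13, adjusted p = 6.43e-08), Pdia3 2.62-fold (1.39 ± 0.14, adjusted p = 4.3e-07) and Pdia6 2.71-fold (1.44 ± 0.13, adjusted p = 9.05e-08).

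Their day 7 differences were 0.78, 0.83 and 0.57, all called, although Pdia6 was 0.21 and not called after centring. At day 28 they were 0.15, 0.34 and 0.006, none called, and after centring P4hb was -0.11 and Pdia6 -0.25. From day 3 to day 7 P4hb fell by 0.64, Pdia3 by 0.56 and Pdia6 by 0.86, and from day 7 to day 28 by 0.64, 0.49 and 0.57. The last fall of Pdia3 was lost without day 7 replicate 1 (-0.38) or 2 (-0.44), or without day 28 replicate 1 (-0.47), 2 (-0.45) or 4 (-0.48). A dimmer cluster of Pdia3 gave 1.495 at day 3, 1.03 at day 7 and 0.69 at day 28. Of the other isomerases, Pdia5 differed by 0.53 at day 3 and was not called, with 6.20, 5.54, 5.89 and 4.96 on the day 3 arrays against 5.06, 5.39, 4.92 and 5.12 at day 0, but 0.75 and called without day 3 replicate 4. Pdia2, an isomerase of pancreas, was dim and was not called in any comparison on the deposited scale.

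Sdf2l1, a luminal partner of Hspa5 and Dnajb11 that ER stress induces, had the largest rise of any member at day 3. Sdf2l1 read 3.64, 3.29, 3.81 and 2.18 at day 0, 6.34, 6.39, 6.25 and 6.65 at day 3, 5.03, 4.73, 4.69 and 4.63 at day 7 and 3.37, 3.51, 4.78 and 3.09 at day 28. The arrays of days 3 and 7 lay wholly above day 0, while those of day 28 overlapped it. The difference was 3.18 ± 0.33 at day 3 (9.06-fold, adjusted p = 4.97e-07) and 1.54 ± 0.33 at day 7 (adjusted p = 0.00166). Its day 0 mean was under the day 0 median of all clusters (3.36 to 3.41 by array), so both differences are compressed. Sdf2l1 fell by 1.64 from day 3 to day 7 (adjusted p = 0.00241). The fall of 1.08 from day 7 to day 28 was called, and lost without any 1 of 6 of the 8 arrays compared (-1.11 to -0.88).

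**Figure D2:**
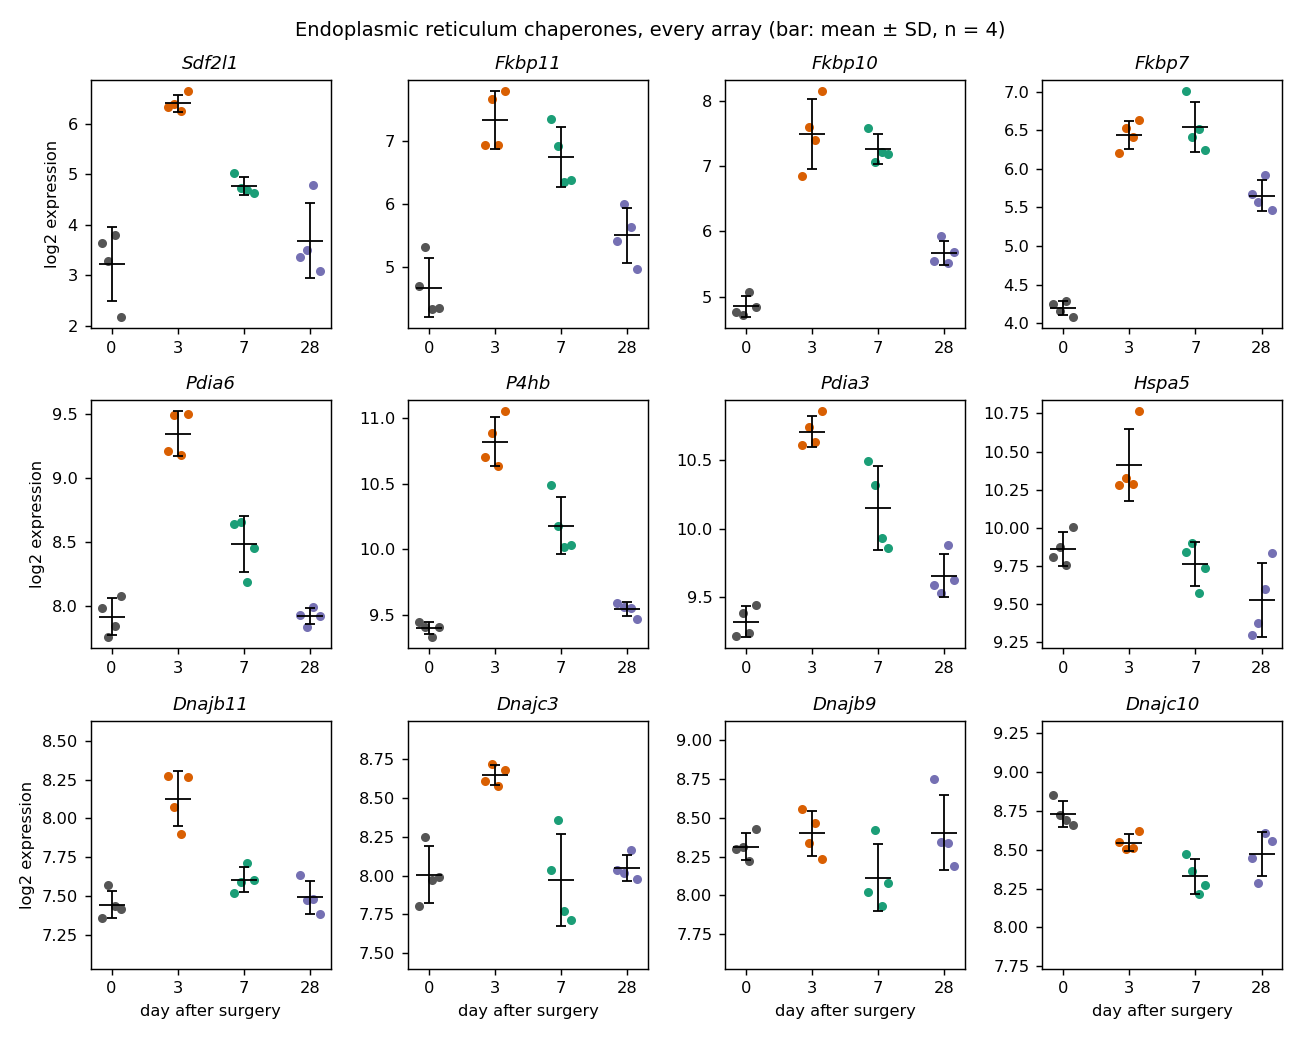
Log2 expression (vertical axis) of 12 ER chaperones on each of the 16 arrays, by day after surgery (horizontal axis), with bars for the mean and SD of 4 arrays. Sdf2l1, the disulfide isomerases and Hspa5 were highest at day 3, Fkbp7 and Fkbp10 stayed high at day 7, and Dnajb9 overlapped between days, with a day 3 difference of 0.08 that is -0.38 after centring.

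The ER prolyl isomerases of the FKBP family, several of which serve collagen, held both of the ER calls at day 28. Fkbp10 (FKBP65), a collagen chaperone, read 4.77, 4.71, 5.07 and 4.84 at day 0, 6.85, 7.59, 7.39 and 8.15 at day 3, 7.58, 7.06, 7.22 and 7.19 at day 7 and 5.54, 5.93, 5.52 and 5.68 at day 28. Fkbp7 (FKBP23) read 4.25, 4.16, 4.29 and 4.09 on the day 0 arrays, 6.21, 6.53, 6.41 and 6.63 on those of day 3, 7.01, 6.41, 6.51 and 6.25 on those of day 7 and 5.67, 5.57, 5.92 and 5.46 on those of day 28. Fkbp11 (FKBP19), known from secretory cells, read 4.70, 5.32, 4.33 and 4.36 on the day 0 arrays, 6.94, 7.67, 6.94 and 7.79 on those of day 3, 7.35, 6.92, 6.35 and 6.38 on those of day 7 and 5.41, 5.99, 5.64 and 4.96 on those of day 28. For Fkbp10 and Fkbp7 every later array was above every day 0 array, and for Fkbp11 the day 28 arrays overlapped day 0. Their day 3 differences were 2.65 ± 0.21, 2.25 ± 0.16 and 2.66 ± 0.29, which is 6.27-fold, 4.74-fold and 6.32-fold, with adjusted p = 1.54e-08, 3.7e-09 and 6.86e-07. At day 7 they were 2.41, 2.35 and 2.07, each called, and the steps from day 3 of -0.24, 0.10 and -0.59 were not called.

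At day 28 Fkbp7 was still 1.46 ± 0.16 above day 0 (2.75-fold, adjusted p = 1.39e-05), and Fkbp10 was 0.82 ± 0.21 above it (adjusted p = 0.0182). The call of Fkbp10 was lost without day 0 replicate 1 (0.79) or day 28 replicate 2 (0.73), and after centring (0.57). Fkbp11, at 0.83, was not called (adjusted p = 0.0817), but was called without day 0 replicate 2 (1.04) or day 28 replicate 4 (1.01). From day 7 to day 28 Fkbp10 fell by 1.59, Fkbp11 by 1.25 and Fkbp7 by 0.89.

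The other ER isomerases of this family each had a course of their own. Fkbp2 (FKBP13) rose 2.28-fold at day 3, from 4.77, 5.27, 5.11 and 4.81 to 6.13, 6.47, 5.86 and 6.25 (1.19 ± 0.22, adjusted p = 0.000311), and fell by 1.06 to day 7. Fkbp14 (FKBP22), which also serves collagen, rose by 0.64 at day 3 (adjusted p = 0.000718) and by 0.43 at day 7. The latter call was lost without day 0 replicate 2 (0.39), day 7 replicate 1 (0.40) or day 7 replicate 2 (0.36). Fkbp9 (FKBP63) was called first at day 7, with 7.95, 8.15, 8.07 and 7.96 at day 0, 7.90, 8.30, 8.41 and 8.62 at day 3, 8.86, 8.41, 8.70 and 8.77 at day 7 and 7.90, 7.97, 7.82 and 7.75 at day 28. Only its day 7 arrays all lay above day 0, by 0.66 ± 0.14 (adjusted p = 0.00189). Its day 3 difference of 0.28 was not called, became 0.41 and called without day 3 replicate 1, and was -0.18 after centring, not called.

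**Figure D3:**
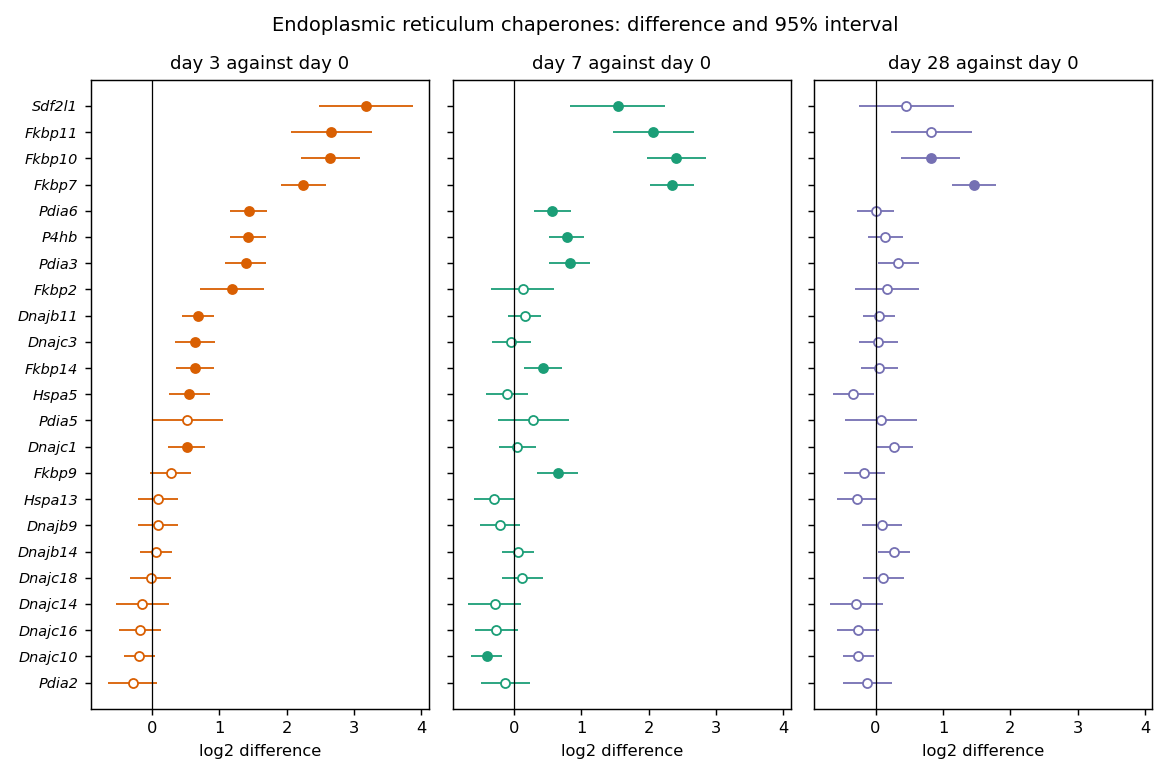
Log2 difference from day 0 (horizontal axis) of the 23 ER chaperones at days 3, 7 and 28, with 95% intervals, and filled points where the adjusted p was under 0.05. Of the filled points, 13 at day 3, 9 at day 7 and 2 at day 28 lie above 0 and 1 at day 7 (Dnajc10) lies below, and each keeps its direction with arrays centred on all genes, while 8, 6 and 1 of the rises keep their call.

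Of 62 other genes of ER folding, translocation and stress signalling, 43 were measured as genes of their own, and 23 rose and 5 fell at day 3 (median 0.38), against 21.7% rises and 19.6% falls over all genes. After centring 15 rose and 15 fell, beside 1883 rises and 8438 falls of all 14557 genes, and the median turned to -0.085. The largest changes were rises of Kdelr3, a receptor that returns chaperones to the ER (3.21 ± 0.31), the calcium-binding Rcn3 (2.74 ± 0.22), Erp29 (2.12 ± 0.34) and the translocon subunit Sec61a1 (2.04 ± 0.18), with adjusted p = 1.61e-07, 2e-08, 6.53e-05 and 6.07e-08. At day 7, 15 of the 43 rose and 7 fell (10 and 15 after centring), against 16.9% and 14.9% of all genes. Txndc5, a disulfide isomerase, was at 1.31. At day 28, 6 rose and 3 fell (2 and 12 after centring), against 6.29% and 2.80% of all genes. The largest of these were Kdelr3 (1.37), Rcn3 (1.29), Txndc5 (0.63) and the stress sensor Eif2ak3 (0.63). Centred counts over all 14557 genes were 1417 rises and 7025 falls at day 7, and 544 and 3043 at day 28. From day 3 to day 7, 13 fell and 0 rose (9 and 3 after centring), against 9.23% falls and 6.02% rises over all genes. After centring, 1042 of all 14557 genes fell and 1374 rose over that step.

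The ER stress regulators were divided at day 3, and were named here after their values were seen. The sensor Ern1 fell by 1.18 ± 0.14 at day 3 (adjusted p = 2.78e-06). Atf6b, the close relative of Atf6, rose by 1.05 ± 0.12 (adjusted p = 1.8e-06), and Eif2ak3 by 0.99 ± 0.16 (adjusted p = 7.32e-05). Xbp1, Atf4, Atf6, Ddit3, Trib3, Ppp1r15a and Herpud1 ran from -0.22 to 0.25 at day 3 and were not called. After centring all of these uncalled genes lay below 0, with Xbp1 at -0.41, Atf4 at -0.26 and Ppp1r15a at -0.21. Among Hspa5's other partners, the nucleotide exchange factor Hyou1 rose by 0.76, and Sil1 was at -0.11 and not called.

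Of 22 other genes of collagen folding and modification, 10 were measured, and 8 rose and 1 fell at day 3 (median 1.30), or 6 and 2 after centring (median 0.84). Over all genes, 21.7% rose and 19.6% fell at day 3. Plod2, a lysyl hydroxylase, rose by 2.65, P4ha3, a catalytic subunit that pairs with P4hb, by 2.57, Serpinh1 (Hsp47), the collagen-specific ER chaperone, by 2.46, and the cyclophilin Ppib by 2.19, with adjusted p of at most 4.45e-08. At day 7, 8 rose and 1 fell (6 and 1 after centring), with P4ha3 at 3.08, against 16.9% rises and 14.9% falls over all genes. At day 28 Serpinh1 (0.78), Ppib (0.72) and Plod2 (0.67) were still called, against 2 rises and 1 fall after centring. Over all genes, 6.29% rose and 2.80% fell at day 28. From day 7 to day 28, 7 of the 10 fell and 0 rose, against 9.38% falls and 8.24% rises over all genes.

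Summed markers of fibroblasts, macrophages and red cells were above day 0 on every later array, but their courses differed. From day 3 to day 7, 14 of 14 macrophage and 3 of 3 red cell markers fell. Of 12 fibroblast markers 2 rose and 0 fell, where 9 of 23 ER members fell. Over all genes, 9.23% fell and 6.02% rose. At day 28, 12 macrophage, 10 fibroblast and 3 red cell markers were called above day 0, beside 2 ER members and 6.29% of all genes. Of 14 fibroblast markers 12 were measured, and their summed linear level ranged over the day 0 arrays from 2910 to 3327, over day 3 from 17127 to 23430, over day 7 from 19104 to 26736 and over day 28 from 8615 to 10272. Tcf21 was under the median of all clusters on every day. Of 16 macrophage markers 14 were measured, with sums of 422 to 545, 9138 to 12321, 3187 to 4720 and 1072 to 1625. At day 0 Adgre1, Itgam, Aif1, Ccr2 and Cx3cr1 were under that median. Of 9 markers of B and plasma cells 5 were measured, with sums of 37.8 to 46.3, 88.1 to 169, 49.1 to 58.6 and 45.3 to 50.2, and Ms4a1, Jchain, Mzb1 and Pou2af1 were under the median at days 0, 3 and 7. Within this list Sdc1, also made by other cells, rose by 2.10 at day 3 and Jchain by 0.92, while Mzb1 fell by 0.46 (adjusted p = 0.0253) and Ms4a1 and Pou2af1 were not called. Of 7 red cell markers 3 were measured (Hba-a1, Hbb-b1 and Ahsp), with sums of 214 to 398, 1065 to 2487, 655 to 1049 and 809 to 1259, and all 3 rose at day 3. Ahsp was under the median at days 0 and 7. The part of all these markers' cells in the results on ER members was not tested.

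In the cytosol, the small heat shock proteins, which hold unfolding proteins and bind the actin and filamin scaffold of muscle, gave 2 of the 3 rises of at least 2-fold at day 3. Of 7 members, 4 rose and 1 fell at day 3, and 5 rose at day 7. Over all genes, 21.7% rose and 19.6% fell at day 3, and 16.9% rose at day 7. Hspb8 (Hsp22), the partner of Bag3 in disposal of damaged filament proteins, read 9.80, 9.71, 9.67 and 9.85 at day 0, 10.68, 10.90, 10.77 and 10.93 at day 3, 10.91, 10.96, 10.95 and 11.23 at day 7 and 9.85, 9.80, 9.84 and 9.64 at day 28. Days 3 and 7 lay wholly above day 0, and day 28 overlapped it. The difference was 1.06 ± 0.11 at day 3 (2.09-fold, adjusted p = 4.97e-07), 1.25 ± 0.11 at day 7 (2.38-fold, adjusted p = 1.88e-07) and 0.024 at day 28 (-0.23 after centring), and Hspb8 fell by 1.23 from day 7 to day 28.

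Hspb1 (Hsp27, called Hsp25 in rodents), which caps actin filaments, rose at days 3 and 7 and fell from day 7 to day 28. Hspb1 read 10.08, 9.72, 10.12 and 10.13 at day 0, 10.97, 11.01, 10.68 and 11.24 at day 3, 10.60, 10.74, 10.21 and 10.78 at day 7 and 9.80, 9.14, 9.43 and 9.48 at day 28. All arrays of days 3 and 7 were above day 0, and 3 of the 4 arrays of day 28 were below it. The rise was 0.96 ± 0.17 at day 3 (1.94-fold, adjusted p = 0.000155) and 0.57 ± 0.17 at day 7 (adjusted p = 0.0153), the latter lost without day 0 replicate 2 (0.47). The day 28 difference of -0.55 ± 0.17 missed the threshold (adjusted p = 0.0503), and was called without day 0 replicate 2 (-0.65), day 28 replicate 1 (-0.66), or any 1 of 3 arrays of other days. From day 7 to day 28 Hspb1 fell by 1.12 (adjusted p = 0.00028).

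Hspb2 and Hspb7, both of heart and skeletal muscle, rose at days 3 and 7. Hspb2 read 8.03, 7.78, 8.09 and 8.06 at day 0, 9.36, 9.01, 8.86 and 8.97 at day 3, 8.66, 8.89, 8.66 and 8.71 at day 7 and 8.59, 8.60, 8.33 and 7.98 at day 28. Hspb7 (cvHsp), which binds filamin, read 10.50, 10.98, 10.90 and 11.09 on the day 0 arrays, 11.77, 11.60, 11.33 and 11.72 on those of day 3, 11.45, 11.51, 11.73 and 11.96 on those of day 7 and 11.26, 10.58, 10.81 and 11.25 on those of day 28. In both, the day 3 and day 7 arrays cleared the day 0 arrays, and those of day 28 overlapped them. Hspb2 rose by 1.06 ± 0.15 (adjusted p = 1.54e-05) and 0.74, and Hspb7 by 0.74 ± 0.18 (adjusted p = 0.00274) and 0.80. The day 28 difference of Hspb2, 0.38, was called only without day 28 replicate 4 (0.52). Hspb7 fell by 0.69 from day 7 to day 28.

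Hspb3 and Hspb6 took other courses. Hspb3, the partner of Hspb2, was not called at day 3 (0.039, or -0.42 and a called fall after centring), and rose by 0.62 at day 7, when its arrays read 8.66, 9.16, 8.53 and 8.66 against 8.20, 8.18, 8.06 and 8.07 at day 0. Its step from day 3 of 0.58 was lost without day 3 replicate 3 (0.54) or 4 (0.52), or day 7 replicate 2 (0.45). Hspb6 (Hsp20), abundant in muscle, read 12.49, 12.61, 12.63 and 12.69 at day 0, 11.64, 11.60, 11.68 and 11.62 at day 3, 12.16, 12.30, 12.76 and 12.97 at day 7 and 12.63, 11.78, 11.67 and 12.51 at day 28. The day 3 arrays formed a tight group below all those of days 0 and 7, and the day 28 arrays fell into a lower and a higher pair. Hspb6 fell by 0.97 ± 0.21 at day 3 (1.96-fold lower, adjusted p = 0.000912) and rose by 0.91 ± 0.21 from day 3 to day 7 (adjusted p = 0.00541). Hspb9, a testis protein, was dim and not called at any day.

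**Figure D4:**
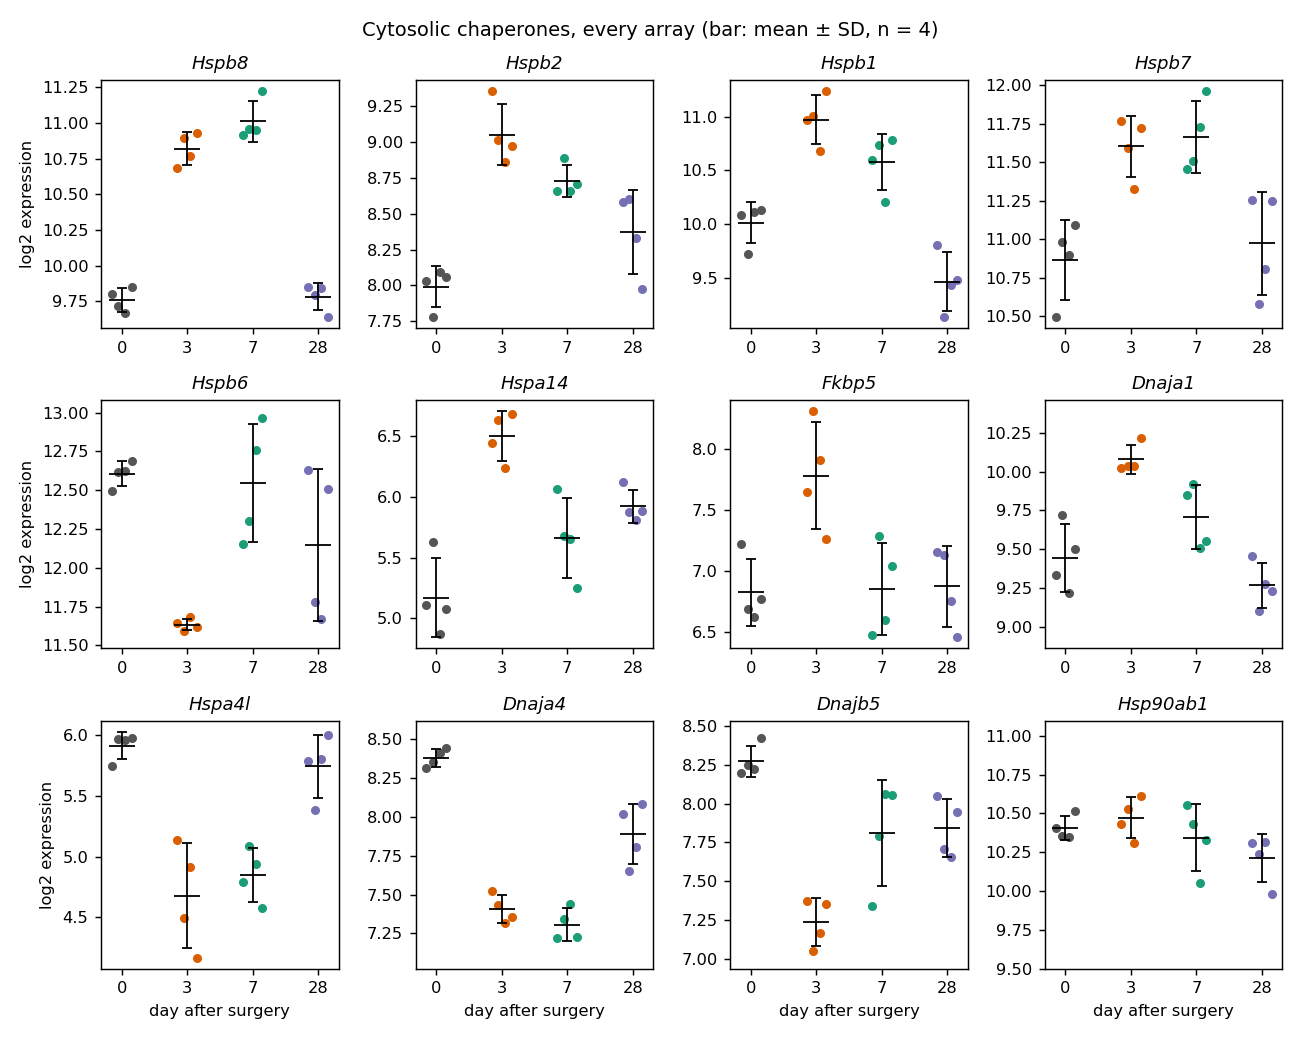
Log2 expression (vertical axis) of 12 cytosolic chaperones on each of the 16 arrays, by day after surgery (horizontal axis), with bars for the mean and SD of 4 arrays. Hspb8, Hspb2, Hspb1 and Hspb7 were above day 0 at days 3 and 7, Hspb6 was below it at day 3, Hspa4l and Dnaja4 were below it at days 3 and 7, and Hsp90ab1 overlapped between days 0, 3 and 7, with a day 3 difference of 0.06 that is -0.40 after centring.

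The Hsp70 proteins, the general folding engines of the cytosol, and their Hsp110 exchange factors gave 1 rise and 4 falls among 8 members at day 3. The shares over all genes were 21.7% rises and 19.6% falls. Hspa1b, an Hsp70 that heat shock induces, read 2.23, 2.17, 2.55 and 2.56 at day 0, 2.48, 2.11, 2.35 and 2.80 at day 3, 2.14, 2.22, 1.88 and 2.27 at day 7 and 2.20, 1.84, 2.41 and 2.17 at day 28. These values are under the median of all clusters and overlap, with a day 3 difference of 0.059 (-0.40 and a called fall after centring) and no call as deposited. Hspa1b has a near-identical copy, Hspa1a, so its own signal is uncertain, and a cluster annotated to both genes differed by 0.12 at day 3. Hspa2 fell by 0.54 at day 3, from 6.22, 6.63, 6.39 and 6.27 to 6.15, 5.78, 5.75 and 5.67 (adjusted p = 0.0185), a call lost without day 0 replicate 2 (-0.46) or day 3 replicate 4 (-0.48). Hspa12a, a distant and dim relative, fell by 0.48, and this call was lost without any 1 of 6 of the 8 arrays compared (-0.51 to -0.35). Hspa12b, known from endothelial cells, was at -0.26 and not called on the deposited scale. The endothelial markers (8 of 10 measured) summed to 950 to 1250 at day 0 and 375 to 525 at day 3, and their part in that value was not tested.

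Hspa14, a ribosome-associated Hsp70, rose most among cytosolic members at day 3. Hspa14 read 5.11, 5.63, 4.87 and 5.07 at day 0, 6.45, 6.63, 6.23 and 6.68 at day 3, 6.06, 5.68, 5.65 and 5.25 at day 7 and 6.12, 5.88, 5.81 and 5.88 at day 28. Days 3 and 28 lay wholly above day 0, and day 7 overlapped it. The difference was 1.33 ± 0.18 at day 3 (adjusted p = 9.7e-06) and 0.75 ± 0.18 at day 28 (adjusted p = 0.0133). The day 7 call (0.49, adjusted p = 0.0451) was lost without any 1 of 11 arrays (0.36 to 0.50). A dimmer cluster of Hspa14 gave -0.03, -0.17 and -0.10 at days 3, 7 and 28, so the clusters of this gene disagree.

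Of the Hsp110 proteins, which release ADP from Hsp70, Hspa4l fell 2.36-fold at day 3. Hspa4l read 5.75, 5.97, 5.97 and 5.98 at day 0, 5.14, 4.49, 4.91 and 4.17 at day 3, 4.79, 5.09, 4.94 and 4.57 at day 7 and 5.79, 5.38, 5.80 and 6.01 at day 28. Every array of days 3 and 7 was below every day 0 array, and day 28 overlapped day 0. The falls were 1.24 ± 0.19 (adjusted p = 3.63e-05) and 1.07 ± 0.19 (adjusted p = 0.000296), and Hspa4l rose by 0.90 from day 7 to day 28. Hsph1 (Hsp105), which heat shock induces and whose promoter holds a heat shock element, read 8.37, 8.40, 8.44 and 8.48 at day 0, 7.92, 8.08, 8.10 and 8.20 at day 3, 7.998, 8.07, 7.64 and 8.12 at day 7 and 7.86, 7.60, 8.12 and 8.03 at day 28. All later arrays were below day 0. Hsph1 fell by 0.35, 0.46 and 0.52 at days 3, 7 and 28 (adjusted p = 0.0475, 0.0134 and 0.0208). The day 3 call was lost without any 1 of 10 arrays (-0.36 to -0.30), the day 7 call without day 7 replicate 3 (-0.36), and the day 28 call without day 0 replicate 3 (-0.51) or 4 (-0.50) or day 28 replicate 1 (-0.51) or 2 (-0.42). Hspa4 was not called at any day, at 0.063 at day 3 (-0.40 after centring, a called fall, adjusted p = 0.00499).

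Hsp90ab1, the constitutive Hsp90 that matures kinases and steroid receptors, was not called in any comparison on the deposited scale. Hsp90ab1 read 10.41, 10.36, 10.35 and 10.52 at day 0, 10.43, 10.53, 10.31 and 10.61 at day 3, 10.56, 10.43, 10.05 and 10.33 at day 7 and 10.31, 10.24, 10.31 and 9.98 at day 28. Only day 28 lay wholly below day 0, by 0.19, and the day 3 difference was 0.064 with a 95% interval of -0.20 to 0.33 (-0.40 after centring, a called fall, adjusted p = 0.00919). At day 28 it was -0.45 after centring, also called (adjusted p = 0.0166). Its FKBP partners on steroid receptors moved in opposite directions at day 3. Fkbp5 (FKBP51), which glucocorticoids induce, read 7.22, 6.68, 6.62 and 6.77 at day 0, 7.64, 8.31, 7.91 and 7.26 at day 3, 6.48, 7.29, 6.60 and 7.04 at day 7 and 7.16, 7.13, 6.75 and 6.46 at day 28. Fkbp4 (FKBP52) read 9.30, 8.95, 8.96 and 8.89 on the day 0 arrays, 8.53, 8.57, 8.52 and 8.29 on those of day 3, 8.29, 8.24, 8.29 and 8.11 on those of day 7 and 8.88, 8.90, 8.71 and 8.91 on those of day 28. Fkbp5 was above day 0 on every day 3 array and overlapped it afterwards, while Fkbp4 was below day 0 on every array of days 3 and 7. Fkbp5 rose by 0.96 ± 0.23 at day 3 (1.94-fold, adjusted p = 0.0027, and 0.50 and not called after centring) and fell by 0.93 to day 7. Fkbp4 fell by 0.55 ± 0.12 at day 3 and 0.79 ± 0.12 at day 7 (adjusted p = 0.0010 and 5.85e-05), and rose by 0.62 from day 7 to day 28.

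The 12 cytosolic J proteins, which bring substrates to Hsp70 and trigger its ATPase, gave 2 rises and 2 falls at day 3. Both shares were under those over all genes, 21.7% rises and 19.6% falls. Dnaja1, whose promoter window holds a heat shock element after the gene start, read 9.34, 9.72, 9.22 and 9.50 at day 0, 10.02, 10.04, 10.04 and 10.22 at day 3, 9.85, 9.92, 9.51 and 9.55 at day 7 and 9.46, 9.10, 9.28 and 9.23 at day 28. Dnajb1, the Hsp40 that heat shock induces, read 5.40, 5.31, 5.03 and 5.78 on the day 0 arrays, 6.05, 5.44, 5.69 and 6.44 on those of day 3, 5.37, 5.44, 4.75 and 4.83 on those of day 7 and 5.43, 5.16, 5.14 and 4.91 on those of day 28. The day 3 arrays of Dnaja1 were clear of day 0, and those of Dnajb1 were not. Dnaja1 rose by 0.63 ± 0.14 (adjusted p = 0.000989), or 0.17 and not called after centring. Its fall of 0.44 from day 7 to day 28 was lost without any 1 of 5 of the 8 arrays compared (-0.45 to -0.37). The Dnajb1 difference of 0.53 ± 0.22 missed the threshold (adjusted p = 0.0644), and was called without day 0 replicate 4 (0.66) or day 3 replicate 2 (0.68). Dnajb1 fell by 0.81 from day 3 to day 7, a call lost without day 3 replicate 4 (-0.63) or day 7 replicate 3 (-0.69) or 4 (-0.72). Dnajc7 (Tpr2), which links Hsp70 and Hsp90, rose by 0.57 at day 3 and 0.49 at day 7, and its 0.42 at day 28 missed the threshold (adjusted p = 0.0509).

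The falls among these J proteins at day 3 were those of Dnaja4 and Dnajb5. Dnaja4 read 8.32, 8.36, 8.41 and 8.44 at day 0, 7.52, 7.44, 7.32 and 7.36 at day 3, 7.22, 7.34, 7.44 and 7.22 at day 7 and 8.02, 7.65, 7.81 and 8.08 at day 28. Dnajb5 read 8.20, 8.25, 8.22 and 8.42 on the day 0 arrays, 7.37, 7.05, 7.17 and 7.36 on those of day 3, 7.34, 7.79, 8.06 and 8.06 on those of day 7 and 8.05, 7.71, 7.66 and 7.95 on those of day 28. All later arrays of both were below all day 0 arrays. Dnaja4 fell by 0.97 ± 0.12 (adjusted p = 2.22e-06), 1.08 ± 0.12 (adjusted p = 1.81e-06) and 0.49 ± 0.12 (adjusted p = 0.0119) at days 3, 7 and 28. Dnajb5 fell by 1.04 ± 0.16 at day 3 (adjusted p = 3.05e-05) and by 0.46 at day 7, the latter lost without day 0 replicate 2 (-0.47) or 4 (-0.41) or day 7 replicate 1 (-0.30) or 2 (-0.45). Its step up of 0.58 from day 3 to day 7 was lost without day 3 replicate 2 (0.51) or day 7 replicate 3 (0.49) or 4 (0.49). Dnajc2, which sits at the ribosome, fell at day 7 (-0.41), a call lost without any 1 of 7 of the 8 arrays compared (-0.43 to -0.31). The other 6 J proteins of the cytosol were not called in any comparison on the deposited scale with all arrays. Without single arrays, Dnajb3 was called at day 3 (0.61 to 0.78) and from day 3 to day 7 (-0.82). In the same way Dnajb8 was called at day 3 (-0.41) and day 7 (-0.42 to -0.36). After centring, 8 of the 12 cytosolic J proteins were called as falls at day 3, as were 8438 of all 14557 genes.

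The CCT chaperonin folds actin and tubulin in a ring of different subunits. Of its 8 members, 5 rose at day 3 and 0 fell, and 2 rose at day 7. Over all genes, 21.7% rose and 19.6% fell at day 3, and 16.9% rose at day 7. Cct2, the beta subunit, read 9.82, 9.61, 9.69 and 9.75 at day 0, 10.60, 10.40, 10.27 and 10.49 at day 3, 10.46, 10.29, 9.94 and 9.98 at day 7 and 9.89, 9.94, 9.95 and 9.76 at day 28. Days 3 and 7 were wholly above day 0, and the rises were 0.72 ± 0.13 (adjusted p = 0.000167) and 0.45 ± 0.13 (adjusted p = 0.0117). Cct3 rose by 0.48 and 0.44, and Cct4, Cct5 and Cct7 rose at day 3 by 0.43, 0.42 and 0.30, which are -0.032, -0.044 and -0.16 after centring, so that their direction turned. The call of Cct7 at day 3 was lost without day 0 replicate 3 (0.26) or day 3 replicate 1 (0.28), 2 (0.31) or 4 (0.27). No CCT rise kept its call after centring. Cct6a, Cct8 and the testis subunit Cct6b were at 0.25, 0.12 and 0.070 at day 3, not called, and Cct8 was -0.34 after centring, a called fall (adjusted p = 0.0101). From day 3 to day 7 Cct4 fell by 0.43, a call lost without day 7 replicate 3 or 4 (-0.38 in both cases), and Cct7 by 0.32, lost without any 1 of 13 arrays (-0.32 to -0.29).

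**Figure D5:**
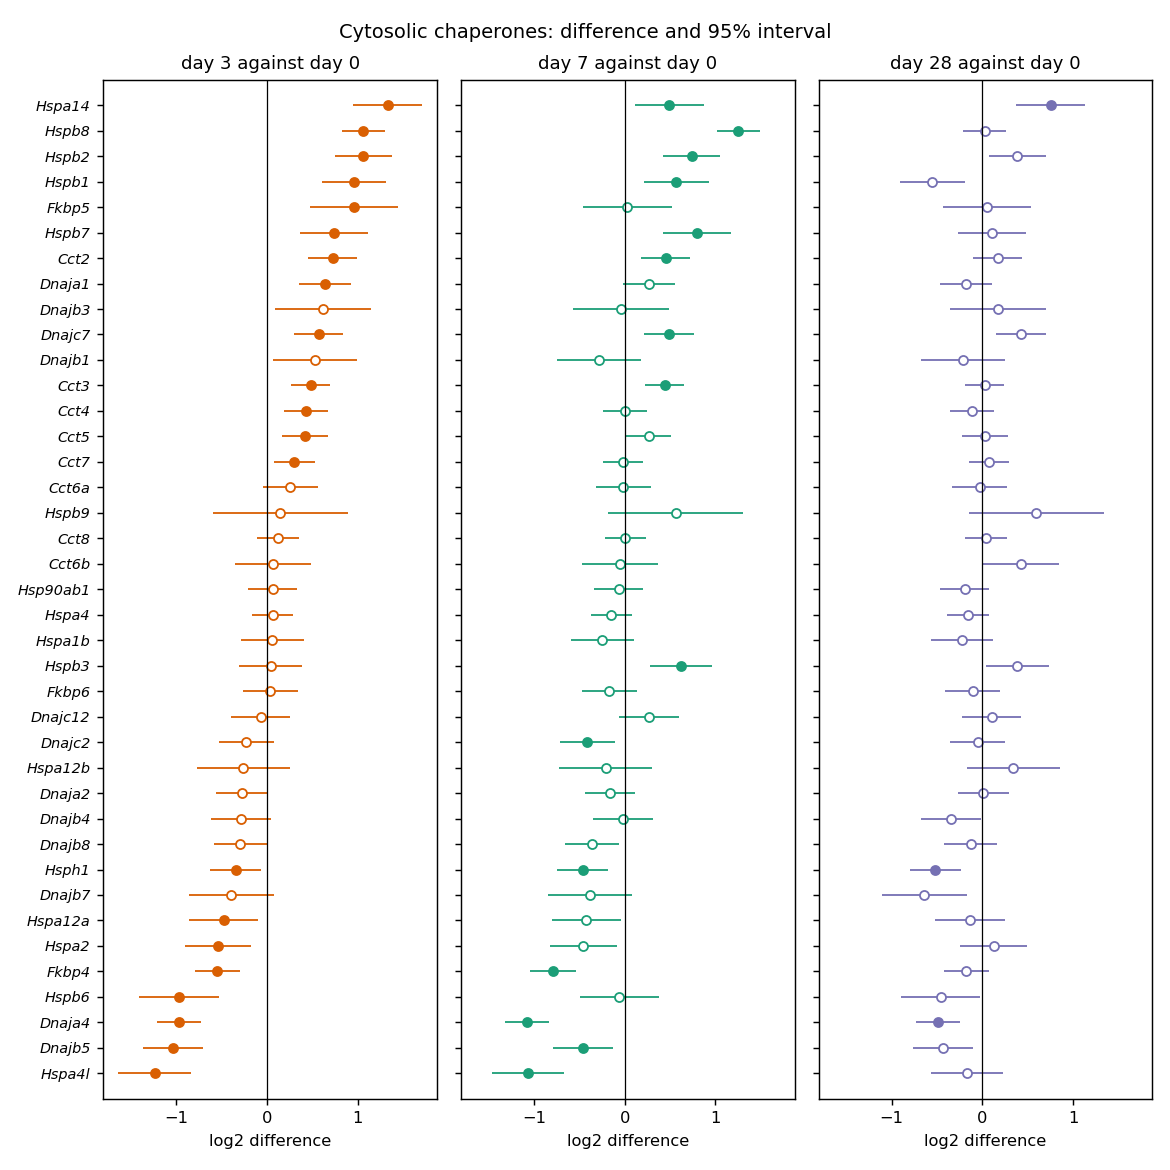
Log2 difference from day 0 (horizontal axis) of the 39 cytosolic chaperones at days 3, 7 and 28, with 95% intervals, and filled points where the adjusted p was under 0.05. At day 3, 13 filled points lie above 0 and 8 below, and with arrays centred on all genes the filled points of Cct4, Cct5 and Cct7 turn to the other side of 0.

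Of 40 other heat shock regulators and cytosolic co-chaperones, 29 were measured, and 5 rose and 5 fell at day 3 (median -0.01), against 21.7% rises and 19.6% falls over all genes. After centring, 0 rose and 19 fell (median -0.47), beside 1883 rises and 8438 falls of all 14557 genes. Hsf1 fell by 0.77 ± 0.12 at day 3 (adjusted p = 5.35e-05), by 0.43 at day 7 and by 0.43 at day 28. Smyd1 and Unc45b, which assemble myosin into thick filaments, fell by 1.41 and 1.09 at day 3 (adjusted p = 3.85e-06 and 1.61e-05). Pfdn5, a subunit of prefoldin, which delivers actin and tubulin to CCT, rose by 0.74. At day 7, 6 rose and 6 fell (0 and 18 after centring), led by Bag4 (-0.86), Pfdn1 (0.69), Pfdn5 (0.67) and Hsbp1 (0.55). Over all genes, 16.9% rose and 14.9% fell at day 7, or 1417 and 7025 of 14557 after centring. At day 28 Pfdn6 rose (0.77) and Hsf1 was the only fall, against 0 rises and 8 falls after centring. Over all genes, 6.29% rose and 2.80% fell at day 28, or 544 and 3043 after centring. Named after its values were seen, Bag3, the partner of Hspb8, was at 0.0022 at day 3 (-0.46 after centring) and rose by 0.37 at day 7, and the small heat shock protein Cryab rose by 0.68 at day 3.

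Of 16 muscle fibre markers 10 were measured, whose sums ran over the day 0 arrays from 77464 to 79008, over day 3 from 61614 to 71819, over day 7 from 72179 to 79217 and over day 28 from 73597 to 81961, and 0 were under the median of all clusters. The day 3 sums were below all those of the other days, and 4 of the 10 markers fell, against 19.6% of all genes. After centring all 10 fell (median -0.52), as did 8438 of all 14557 genes. Their part in the cytosolic results was not tested.

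Mitochondrial members split in the same way at days 3 and 7. Hspe1 (Hsp10), the lid of the matrix chaperonin, whose promoter holds the overlapping heat shock elements above, read 8.52, 8.34, 8.32 and 8.46 at day 0, 9.30, 9.16, 9.18 and 9.24 at day 3, 8.998, 9.01, 8.84 and 8.68 at day 7 and 8.89, 8.80, 8.55 and 8.45 at day 28. Hspa9 (mortalin), the matrix Hsp70 that pulls proteins in, read 11.50, 11.90, 11.49 and 11.57 on the day 0 arrays, 11.10, 10.85, 11.11 and 10.91 on those of day 3, 10.85, 10.84, 10.995 and 10.84 on those of day 7 and 11.27, 11.32, 11.40 and 11.63 on those of day 28. On days 3 and 7 every array of Hspe1 was above day 0 and every array of Hspa9 below it. Hspe1 rose by 0.81 ± 0.12 (adjusted p = 3.3e-05) and 0.47, of which the second was 0.11 and not called after centring. Hspa9 fell by 0.63 ± 0.12 (adjusted p = 0.000507) and 0.74 ± 0.12 (adjusted p = 0.000192), and rose by 0.52 from day 7 to day 28. The J proteins Dnajc11, Dnajc15 and Dnajc30 were not called at any day on the deposited scale. After centring, 3 of the 5 mitochondrial members were called as falls at day 3, and 2 at each of days 7 and 28. On that scale, 1883 of all 14557 genes rose and 8438 fell at day 3. At day 7, 1417 rose and 7025 fell, and at day 28, 544 and 3043. Of 17 other genes of mitochondrial protein quality control, 14 were measured. At day 3, 2 rose and 6 fell (1 and 11 after centring), against 21.7% rises and 19.6% falls over all genes. The protease Htra2 rose by 1.81, and Spg7, Clpx and Clpb fell by 0.84, 0.68 and 0.61. The shares over all genes at day 7 were 16.9% rises and 14.9% falls. At day 7, 1 rose (Htra2, 1.29) and 4 fell (1 and 11 after centring). At day 28 Htra2 alone was called (0.88), against 1 rise and 2 falls after centring, where 9.09% of all genes were called.

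Of the 13 members at other sites, 4 rose and 1 fell at day 3, against 21.7% rises and 19.6% falls over all genes. Fkbp8 (FKBP38), anchored in the outer mitochondrial membrane, read 7.10, 6.79, 6.71 and 6.65 at day 0, 7.59, 7.79, 7.79 and 8.01 at day 3, 8.08, 7.59, 7.54 and 8.03 at day 7 and 7.63, 7.32, 7.14 and 7.26 at day 28. Every later array was above day 0, with differences of 0.98 ± 0.16, 0.998 ± 0.16 and 0.52 ± 0.16 (adjusted p = 6.23e-05, 0.000102 and 0.0469). The day 28 call was lost without any 1 of 9 arrays (0.43 to 0.59). Dnajc9, a J protein that binds histones, read 6.09, 6.27, 6.04 and 6.11 at day 0, 7.06, 7.01, 6.89 and 7.21 at day 3, 6.50, 6.54, 6.30 and 6.20 at day 7 and 6.83, 6.50, 6.13 and 6.06 at day 28. Only day 3 was clear of day 0, with a rise of 0.91 ± 0.15 (adjusted p = 0.000106). Dnajc22, a membrane J protein, read 3.05, 3.48, 3.59 and 2.73 at day 0, 5.09, 4.89, 4.40 and 4.29 at day 3, 4.48, 3.23, 4.38 and 4.19 at day 7 and 3.52, 3.71, 4.20 and 4.000 at day 28. It rose by 1.46 ± 0.27 at day 3, a compressed value since its day 0 mean was under the median of all clusters. Its day 7 rise of 0.86 was lost without day 0 replicate 1 (0.80) or 4 (0.70) or day 7 replicate 1 (0.72) or 3 (0.75). Dnajc25 rose by 0.57 at day 3.

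Among these members the falls were of vesicle and nuclear J proteins. Dnajc27, a J protein joined to a Rab-like domain, read 6.55, 6.66, 6.62 and 6.47 at day 0, 5.94, 5.48, 5.44 and 5.08 at day 3, 5.33, 5.50, 5.81 and 5.42 at day 7 and 6.19, 6.34, 6.22 and 6.62 at day 28. Days 3 and 7 lay wholly below day 0, by 1.09 ± 0.16 and 1.06 ± 0.16 (adjusted p = 3.01e-05 and 8.18e-05), and Dnajc27 rose by 0.83 from day 7 to day 28. Dnajc13 (Rme-8), of endosomes, read 8.32, 8.30, 8.15 and 8.18 at day 0, 8.01, 8.14, 8.15 and 8.27 at day 3, 7.59, 7.62, 7.43 and 7.51 at day 7 and 7.86, 7.94, 8.02 and 8.21 at day 28, with its lowest values at day 7. It fell by 0.70 ± 0.11 at day 7 (adjusted p = 0.000103). The nuclear Dnajc17 read 5.72, 6.04, 5.93 and 6.28 at day 0, 6.002, 5.52, 5.58 and 6.06 at day 3, 5.68, 5.61, 4.91 and 5.56 at day 7 and 6.18, 6.31, 6.49 and 6.14 at day 28. Its fall of 0.56 at day 7 was lost without day 0 replicate 2 (-0.54) or 4 (-0.46) or day 7 replicate 3 (-0.38). Of the 8 members without an assigned site, 7 had means under the lowest array median of all clusters (3.19), as did 18 of all 88 members (20.5%) and 39.5% of all genes. The single call among them was a fall of the pseudogene Hspa8-ps31 at day 7, from 2.91, 3.21, 2.80 and 2.82 to 2.54, 2.44, 2.63 and 2.52 (-0.40), lost without any 1 of 5 of the 8 arrays compared (-0.41 to -0.31). At day 3 it read 3.12, 2.81, 2.52 and 3.11 and at day 28 2.71, 2.78, 2.59 and 2.76, overlapping day 0 at day 3.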

How the data were processed

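RNA of plantaris muscle was measured on 16 Affymetrix arrays (4 each at days 0, 3, 7 and 28). These were Rat Gene 2.1 ST arrays with 400 ng of RNA each, per the labels' protocols. The authors deposited log2 expression values per transcript cluster; RMA, oligo and limma are named in the submitters' processing notes, with versions, build and annotation not given in the sources used here. Of 36685 clusters, 14824 had 1 symbol in the platform annotation, which left 14557 genes at 1 cluster (highest mean) each. A group-means model with empirical Bayes moderation was fitted to the deposited log2 values of all 16 arrays in limma 3.58.1 (R 4.3.3), for 5 comparisons, two-sided, with Benjamini-Hochberg adjustment over all genes. The fit was tested on simulated data. Levels of different genes are not compared, since probes differ. Symbols of 22 of 102 chaperone genes sought (such as Hspa8, Hsp90b1, Hsp90aa1, Hspd1, Pdia4 and Fkbp1a) had no cluster of their own and were not analysed here.

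Members, sites, lists, markers and the naming rule were chosen with earlier results of these data known. The rule gives every array for 24 measured genes of a panel of 30 and, per site and comparison with day 0, for the 3 largest called rises and falls whose arrays do not overlap day 0 (38 members in all), and names up to 4 called genes per list. Summed marker levels are sums of 2 to the power of the log2 values. Alternatives were an intensity trend, array weights, leaving out dim genes, 2 centrings, cyclic loess, the mean of clusters, only the compared groups, replicate blocks and each array left out. No batch is named in the labels.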

Additional observations from a re-analysis of the deposited data

Results flagged for a closer look

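In 9 of 152 groups of 4 arrays, 1 array lay far from the other arrays of its day, measured as the gap to the nearest array over the group's range, and about 1 in 20 groups is marked so by chance. Those above the rest were Hspa5 on day 3 replicate 4 (10.76, others 10.28 to 10.32), Dnaja1 on day 3 replicate 4 (10.22, others 10.02 to 10.04), Hspb8 on day 7 replicate 4 (11.23, others 10.91 to 10.96), Hspa9 on day 7 replicate 3 (10.995, others 10.84 to 10.85) and Fkbp4 on day 0 replicate 1 (9.30, others 8.89 to 8.96). Those below were Hspb1 on day 0 replicate 2 (9.72, others 10.08 to 10.13), Hspa4l on day 0 replicate 1 (5.75, others 5.97 to 5.98), Fkbp4 on day 28 replicate 3 (8.71, others 8.88 to 8.91) and Dnajc17 on day 7 replicate 3 (4.91, others 5.56 to 5.68).

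A cluster outside the comparisons, annotated to the inducible cytosolic Hsp90 gene Hsp90aa1 and to its pseudogene Hsp90aa1-ps17, was higher at day 3 than on the control arrays. It read 10.15, 10.31, 10.04 and 10.45 at day 3 against 9.10, 9.29, 9.01 and 9.56 at day 0, a difference of 1.00. At days 7 and 28 the differences were 0.020 and -0.36. The signal cannot be assigned to either gene.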

How the results depend on the processing

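The arrays carry no read depth and their number limits the precision. Of 122 member calls in the 5 comparisons, 95 held whichever array was left out and 27 were lost without at least 1, 35 were lost after centring on all genes, and 25 under another alternative. Centring on all genes gave, for cytosolic members, 4 rises and 21 falls at day 3, 3 rises and 21 falls at day 7, 13 falls at day 28, and 3 falls both from day 3 to day 7 and from day 7 to day 28. For ER members it gave 8 rises and 8 falls at day 3, 9 falls at day 7, 1 rise and 6 falls at day 28, and 1 rise from day 3 to day 7. Over all 14557 genes it gave 1883 rises and 8438 falls at day 3. At day 7 it gave 1417 and 7025, and at day 28, 544 and 3043. Values whose sign centring on all genes turned, and that were called on either scale, included at day 3 Cct4 (-0.032), Cct5 (-0.044), Cct7 (-0.16), Cct8 (-0.34), Dnajb14 (-0.40), Dnajb9 (-0.38), Dnajc5g (-0.46), Fkbp6 (-0.43), Hsp90ab1 (-0.40), Hspa13 (-0.37), Hspa1b (-0.40), Hspa4 (-0.40) and Hspb3 (-0.42). At day 7 they included Cct4 (-0.36), Cct8 (-0.35), Dnajb14 (-0.29) and Fkbp3 (-0.35). Any other positive difference from day 0 smaller than the shift of its day (0.46, 0.36 or 0.25) turned too, such as that of Fkbp9 at day 3. Centring on the brighter 50% of genes gave 13 cytosolic and 2 ER falls at day 3 and 1 ER rise from day 3 to day 7. That ER rise, Fkbp9, was also the 1 called with an intensity trend or without the dimmest 50% of genes. The single cytosolic rise at day 28 became 2 with an intensity trend, without the dimmest 25% or 50% of genes, with cyclic loess, with array weights and with a replicate block, fixed or random, and 0 with the mean of a gene's clusters. The cytosolic falls at day 28 became 4 without the dimmest 50% of genes. Fitting only the groups compared gave 1 cytosolic rise and 3 falls from day 3 to day 7. Leaving out single arrays gave 5 to 8 cytosolic falls at day 3 (5 without day 0 replicate 2), 1 to 3 cytosolic rises and 1 to 3 falls and 1 to 3 ER rises at day 28, and 2 to 5 cytosolic falls and 0 to 1 ER rises from day 3 to day 7. Arrays with the same replicate number deviated together little (24 pairs, mean r = 0.019, none over 0.1), against a mean of -0.0064 in 72 pairs of different numbers. A correlation over all genes cannot show what the numbers stand for. The replicate block changed no other count of ER or cytosolic members by over 1.5 times. The cause of the changes was not tested.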
